A study of Mus musculus with 59 samples.

Results

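Astrocytes are the star-shaped glial cells that clear transmitters, buffer ions and feed neurons in the cortex, and 30 genes that mark them were followed through all groups of this mouse study. The genes were taken from a list of transporters, channels, enzymes, filaments, receptors and transcription factors widely used to recognise astrocytes, and were found in the table by matching Ensembl identifiers to gene symbols. All 30 were measured among 18088 genes, and all 30 had a mean of at least 10 normalized counts, as did 16546 genes in all. Messenger RNA was sequenced from the prefrontal cortex of C57BL/6J pups at postnatal day 25. Pups were wild type (WT) or labelled heterozygous (HT) for Myt1l, a neuronal transcription factor gene, and males and females of both genotypes were used. From postnatal day 3 to 24, for 3 weeks, pups of every group were nursed by mothers on vehicle, on the antidepressant fluoxetine, which blocks serotonin reuptake, or on lithium, used against bipolar disorder, so that each drug reached the pups in milk. Combining genotype, treatment and sex gave 12 groups, and 59 libraries were made, 4 from WT fluoxetine females and 5 from each of the other groups. Litters and mothers are not given in the labels, so every p-value below measures the spread between pups only.

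Astrocytes take up glutamate and GABA released at synapses, turn glutamate into glutamine for neurons, and pass water, potassium and bicarbonate between the tissue and blood vessels. They are joined to each other by connexin channels, and their end-feet wrap the vessels. Gfap and Vim, intermediate filament genes, are low in resting cortical astrocytes and higher near the brain surface, in white matter, in the olfactory bulb and in reactive astrocytes, while Fabp7, which encodes brain lipid-binding protein, is also known from radial glia and olfactory ensheathing cells.

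Stretches upstream of 4 genes are printed because these genes moved in the drug comparisons described below, Slc6a11, Gfap and Fabp7 upwards and Gli3 downwards. The sequences come from RefSeq on GRCm38.p6 and are written 5′ to 3′ on the strand of the gene. Capitals mark a match to AAGTTT on either strand, the core recognised by zinc fingers of the Myt1 family to which the protein of the targeted gene belongs. The Slc6a11 stretch lies at chr6:114130991-114131240 on the plus strand, directly before the annotated gene. The Gfap stretch at chr11:102897201-102897450 on the minus strand lies inside an intron of a longer Gfap transcript in the GENCODE annotation. The Fabp7 stretch at chr10:57784673-57784880 on the plus strand ends where the annotated gene begins. The Gli3 stretch at chr13:15463473-15463722 on the plus strand lies in an intron of longer Gli3 transcripts and in an exon of Gm6556, a transcript of the other strand.
Slc6a11: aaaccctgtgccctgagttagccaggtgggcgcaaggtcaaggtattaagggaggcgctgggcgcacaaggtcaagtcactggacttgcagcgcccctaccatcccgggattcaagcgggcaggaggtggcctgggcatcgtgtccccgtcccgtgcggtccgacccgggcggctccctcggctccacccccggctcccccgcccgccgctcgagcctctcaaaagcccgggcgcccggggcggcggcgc
Gfap: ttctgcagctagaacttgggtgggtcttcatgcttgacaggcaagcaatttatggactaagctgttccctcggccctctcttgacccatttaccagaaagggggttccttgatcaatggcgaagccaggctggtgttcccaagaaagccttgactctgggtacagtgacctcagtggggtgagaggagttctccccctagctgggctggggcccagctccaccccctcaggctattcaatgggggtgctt
Fabp7: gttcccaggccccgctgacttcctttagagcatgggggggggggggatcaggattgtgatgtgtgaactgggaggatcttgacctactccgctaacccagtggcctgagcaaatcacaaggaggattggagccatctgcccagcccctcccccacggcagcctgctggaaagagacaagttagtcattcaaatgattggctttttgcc
Gli3: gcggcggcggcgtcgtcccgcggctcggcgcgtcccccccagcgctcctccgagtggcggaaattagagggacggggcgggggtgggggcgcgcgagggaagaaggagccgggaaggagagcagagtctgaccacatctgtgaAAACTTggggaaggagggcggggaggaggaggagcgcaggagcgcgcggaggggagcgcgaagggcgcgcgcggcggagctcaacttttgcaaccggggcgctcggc
Of these 4 stretches, that of Gli3 held the core, once. Among 31 windows of 250 bases found for 27 of the 30 genes, 2 held AAGTTT on either strand, those of Fgfr3 and Gli3, which is 6.5% against 12.8% of 32851 windows of all genes. TTGGCA, the nuclear factor I core, was in 3 of the 31 windows (Hepacam, S100b and Aldoc) and in 12.3% of all windows. AACAAT, the Sox core, was in 0 of the 31 and in 9.4% of all. A match of letters is a description of the window and not a binding site.

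The depth of the libraries ran from 25088446 to 35858365 reads, and no 2 libraries were identical. The gene named in the HT label did not show a lower transcript level under that label: Myt1l ran from 6189 to 8802 normalized counts with a median of 8501 in the 10 libraries labelled HT with vehicle, and from 6736 to 7612 with a median of 7016 in the 10 WT vehicle libraries. Medians of HT and WT were 9006 and 7481 under fluoxetine and 8642 and 7000 under lithium. Directions between genotypes are therefore those of the libraries labelled HT and WT. Some libraries stood apart in genes of neighbouring brain regions. List levels are given as means of standardized log2 values over the genes listed. That of 15 genes of striatal projection neurons was above 1 in 5 libraries (HT fluoxetine female 2 and male 2, HT vehicle female 3 and male 3, WT fluoxetine female 2). That of 8 olfactory bulb genes was above 1 in 10 libraries, namely HT fluoxetine females 1 and 4 and males 1 and 3, WT fluoxetine females 2, 3 and 4 and males 2 and 5, and WT lithium male 1. Results that rest on these libraries are given with and without them.

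The astrocyte genes spanned a wide range in WT vehicle libraries, from 34.9 normalized counts per kilobase of exon for Gli3 to 15280 for Glul. All values in this paragraph are per-kilobase means over 10 libraries. Among genes of transmitter uptake and amino acid metabolism, Glul, glutamine synthetase, was highest, followed by Slc1a2, the main glutamate transporter of the forebrain, at 7915, and Slc1a3, the glutamate-aspartate transporter, at 4654. Slc6a11, the astrocytic GABA transporter, stood at 1114, Slc25a18, a mitochondrial glutamate carrier, at 664, and Slc7a10, a neutral amino acid exchanger, at 322.7. Prodh, proline dehydrogenase, had 207.5 and Cbs, cystathionine beta-synthase, had 115.2. The 3 leading genes and Aldoc, the brain aldolase at 6115, did not overlap between libraries: Glul ranged from 14470 to 15819, Slc1a2 from 7023 to 8463, Aldoc from 5592 to 6701 and Slc1a3 from 4335 to 4944.

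Of the water, ion and junction genes, Atp1b2, a sodium pump subunit, was highest at 3793 per kilobase. Gja1, which encodes the main astrocyte connexin, had 1636, and the membrane protein gene Mlc1 had 1315. Gjb6, a second connexin gene, at 663.3, Hepacam, the adhesion partner of Mlc1, at 655.2, and Aqp4, the end-foot water channel, at 640.2, overlapped in their libraries, and Slc4a4, a sodium bicarbonate cotransporter, had 399.9. Energy genes after Aldoc were Acsbg1, an acyl-CoA synthetase, at 1266, Aldh1l1, a folate dehydrogenase, at 416.6, and Ppp1r3c, a glycogen-targeting phosphatase subunit, at 362.2. S100b, a calcium-binding protein gene, had 1699, Gfap 797.7, Fabp7 745.2 and Vim 461.3. Mfge8, a secreted opsonin, at 1664 and Ntsr2, a neurotensin receptor, at 1593 led the surface and secreted group, ahead of Fgfr3, a growth factor receptor, at 582.9, F3, tissue factor, at 487.5, and Cldn10, a claudin, at 206.1. The transcription factor genes were lowest, Sox9 at 111.6 and Gli3, of the hedgehog pathway, at 34.9. Neighbours in this order often overlapped: S100b ran from 1575 to 1797, Mfge8 from 1425 to 2003 and Gja1 from 1531 to 1763.

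Added together, the 30 genes made 241203 ± 7521 normalized counts in WT vehicle libraries (SD, n = 10), which is 0.814% of a library. HT vehicle libraries had 267868 ± 43253 (n = 10, 0.896%), and HT fluoxetine ones 229858 ± 7403 (n = 10, 0.809%). WT fluoxetine libraries had 227123 ± 9019 (n = 9, 0.794%). Lithium sums were 235187 ± 26081 in HT (n = 10, 0.790%) and 237973 ± 16724 in WT (n = 10, 0.803%). Slc1a2 was the largest part, with a mean of 95713 in WT vehicle and 75970 in WT fluoxetine. Its HT means were 107100 with vehicle and 78050 under fluoxetine. The sum thus leans on this 1 gene and does not stand for all 30. The spread was widest in HT vehicle and HT lithium. In tissue RNA, fewer astrocytes and less RNA per astrocyte cannot be told apart. The steadiest gene within groups was Glul, with an SD of 0.12 on the log2 scale, and the most variable was Fabp7, with 0.75. The 12 group means took up 14.2% of the variance of Slc1a3, the smallest share, and 55.2% of that of Fabp7, the largest, followed by 47.5% for Slc1a2 and 43.7% for Slc6a11. Fitting 12 means to 59 libraries takes up some variance even where groups do not differ. The shares are not corrected for this, so the small ones show neither a group difference nor the lack of one. Between the highest and the lowest of 59 libraries, Slc1a3 differed 1.54-fold and Fabp7 16.2-fold.

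**Figure D1:**
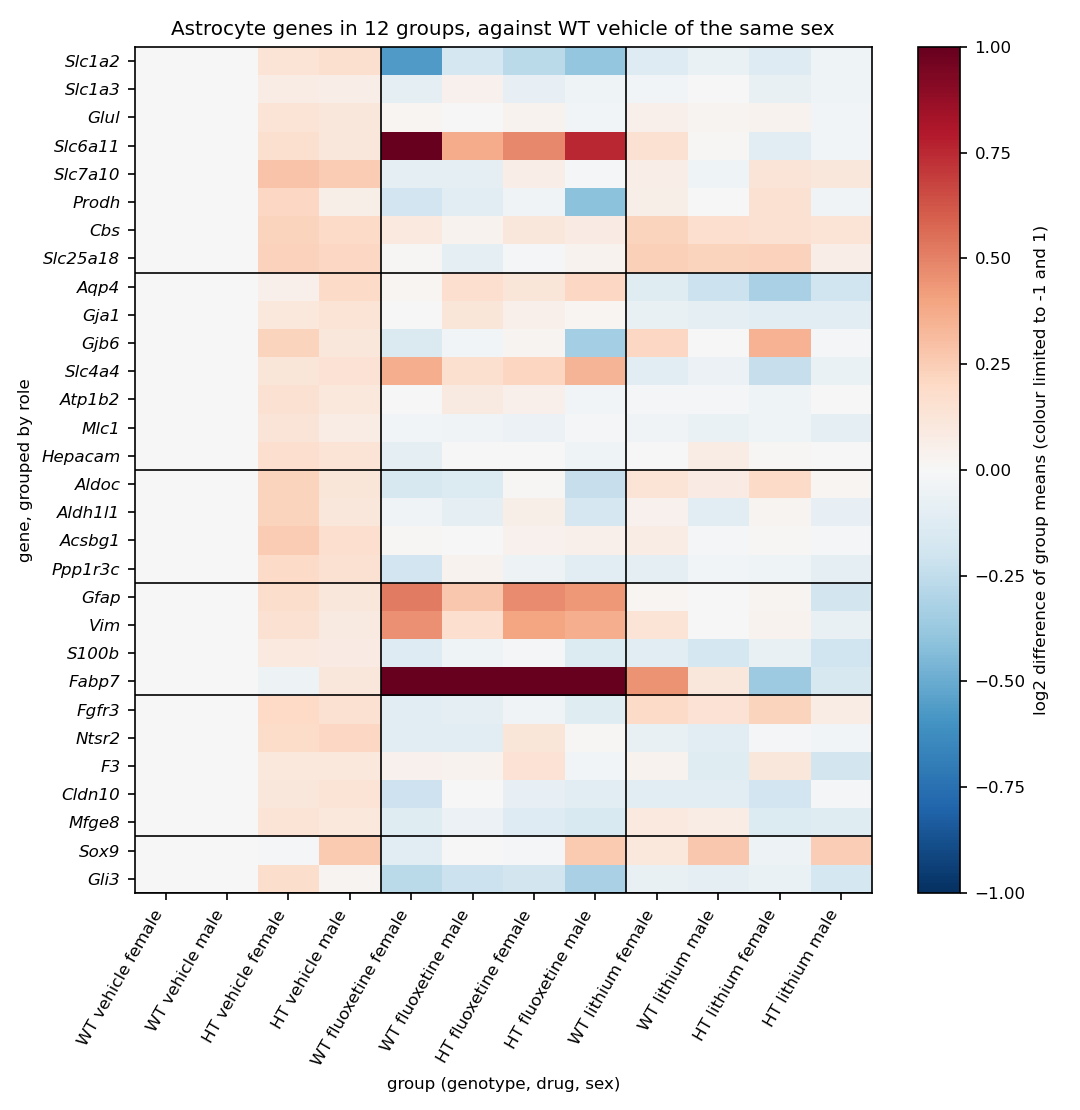
Heat map of the 30 astrocyte genes (rows) in the 12 groups of genotype, drug and sex (columns), as the log2 difference of the group mean from WT vehicle of the same sex, with colours limited to the range -1 to 1. Fabp7 and Slc6a11 stand out as higher in the fluoxetine groups and Slc1a2 as lower, while HT vehicle is slightly above WT vehicle for most genes.

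The first comparison asked whether the genotype label alone was accompanied by a different level of astrocyte genes, with vehicle. No gene of the 30 passed the test: with limma on log2(normalized count + 1) over 16546 genes, averaging the sexes and adjusting by Benjamini-Hochberg at 0.05, 0 of 30 were called, beside 0% of all genes. Without adjustment 12 of the 30 and 1618 of all genes had p below 0.05. All 30 log2 differences of HT from WT were positive, with a median of 0.13 against 0.00 over all genes.

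Genes of amino acid handling had the smallest p. Slc7a10 had 697.3 to 1172 normalized counts with a median of 763.2 in HT vehicle and 578.5 to 762 with a median of 675.4 in WT vehicle. The ranges overlapped, and 6 of 10 HT libraries lay above the WT range. The log2 difference was 0.27 (SE 0.088, limma adjusted p = 0.373). Cbs ran from 655.9 to 1272 with a median of 770.6 in HT against 646.4 to 830.7 with a median of 708.1 in WT, a log2 difference of 0.21 (SE 0.076, limma adjusted p = 0.414). Slc25a18 ran from 1215 to 2161 with a median of 1370 against 1146 to 1462 with a median of 1253, a log2 difference of 0.22 (SE 0.081, limma adjusted p = 0.414). Slc1a2 had a log2 difference of 0.14 with a 95% interval from -0.05 to 0.34, and Fabp7 one of 0.03 with an interval from -0.64 to 0.70.

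Libraries HT vehicle female 3 and male 3 carried most of this surplus. Their summed astrocyte genes reached 346102 and 342590 normalized counts, against 248749 ± 17764 in the other 8 HT vehicle libraries (SD). One or the other was the highest of all 59 libraries for 22 of the 30 genes, and both lay above all 10 WT vehicle libraries for 25. The same libraries had levels of 2.281 and 1.920 for striatal genes, 3.030 and 2.598 for myelin genes, 2.369 and 2.729 for microglial genes, 2.093 and 2.361 for vessel genes, and -0.577 and -1.095 for neuronal genes. Without the 5 libraries high in striatal genes, 28 of the 30 log2 differences were positive with a median of 0.05, and 0 had an unadjusted p below 0.05. Slc7a10 then differed by 0.15, Cbs by 0.07 and Slc25a18 by 0.09 (limma adjusted p = 1 for each).

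**Figure D2:**
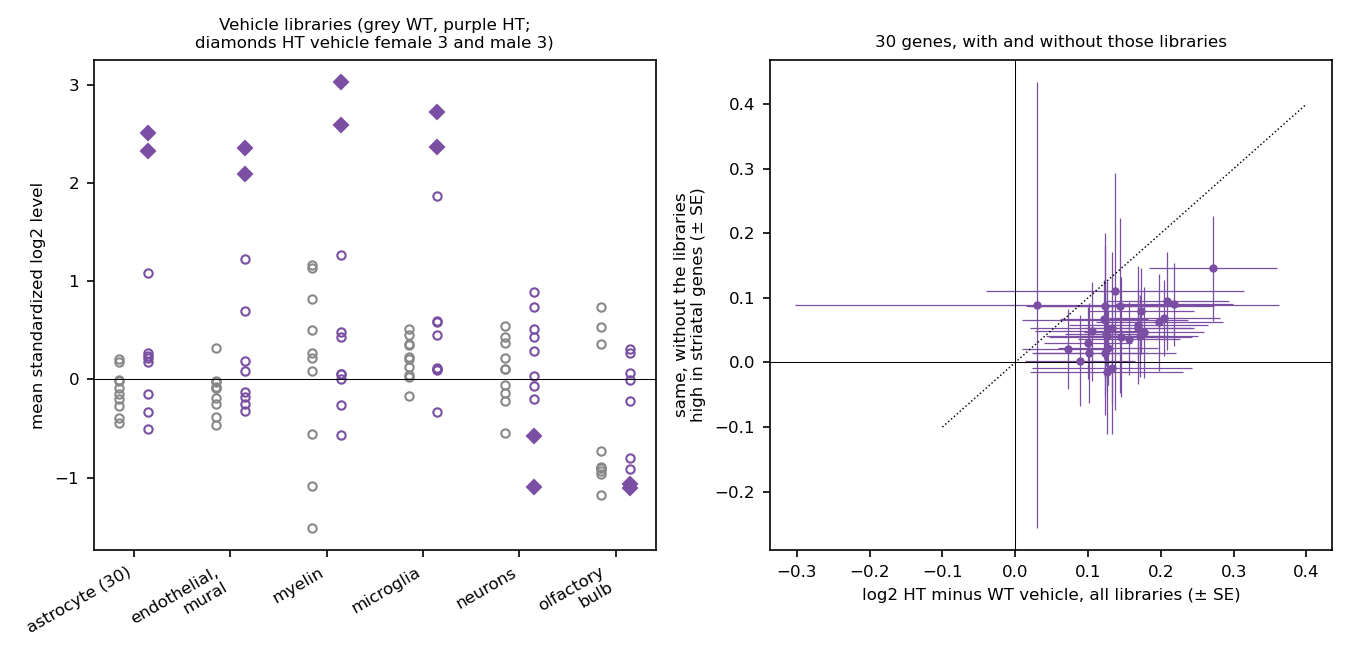
Left, level (mean standardized log2 value) of gene lists of 10 WT (grey) and 10 HT (purple) vehicle libraries, with diamonds for HT vehicle female 3 and male 3. Right, log2 difference of HT from WT with vehicle for each of the 30 genes with all libraries (x axis) and without the 5 libraries high in striatal genes (y axis). The diamonds are the highest vehicle libraries for the astrocyte, myelin, microglial and vessel lists, with HT vehicle female 1 next for microglia at 1.871 beside 2.369 and 2.729, and the median difference goes from 0.13 to 0.05.

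Fluoxetine in HT pups was accompanied by lower levels of 12 genes, among them Slc1a2, Aldoc, Ppp1r3c, Gjb6 and Gli3, and by higher levels of Fabp7 and Slc6a11. Of the 30 genes 2 rose and 12 fell (limma, Benjamini-Hochberg over all genes), which is 14 of 30 where 29.2% of all genes were called, 14.6% higher and 14.6% lower. The median log2 difference of the 30 was -0.15, against -0.01 over all genes, and 24 of the 30 were negative. This comparison uses the same HT vehicle libraries as the one above, so the pair of libraries described there enters here as controls.

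Among transmitter and amino acid genes, 4 of 8 fell and 1 rose. Slc1a2 had 45378 to 98651 normalized counts with a median of 83016 under fluoxetine and 90558 to 144864 with a median of 101468 with vehicle. Of the 10 fluoxetine libraries, 8 lay below the vehicle range. The log2 difference was -0.47 (SE 0.098, limma adjusted p = 0.000375). Slc6a11 spread both ways, from 3548 to 16930 with a median of 6076 against 4220 to 5671 with a median of 5193: 6 libraries lay above the vehicle range and 2 below it. Its log2 difference was 0.48 (SE 0.18, limma adjusted p = 0.0346). Prodh fell by 0.36 (adjusted p = 0.0127) and Slc7a10 fell by 0.25 (adjusted p = 0.030). Slc1a3, Glul and Cbs, at -0.14, -0.12 and -0.11, were not called.

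The energy genes were called lower in 3 of 4 cases. Aldoc had 13990 to 20361 normalized counts with a median of 16529 under fluoxetine and 17299 to 29868 with a median of 19068 with vehicle, 7 of 10 libraries lying below the vehicle range. The log2 difference was -0.28 (SE 0.079, limma adjusted p = 0.00616). Ppp1r3c ran from 845.9 to 1088 with a median of 908.7 against 981.7 to 1509 with a median of 1004, and 8 of 10 libraries were below the vehicle range. It fell by 0.26 (SE 0.072, limma adjusted p = 0.00673), and Aldh1l1 fell by 0.22 (adjusted p = 0.0186), while Acsbg1 at -0.16 was not called. Of the 7 water, ion and junction genes only Gjb6 was called. It ran from 1032 to 1642 with a median of 1261 against 1265 to 2187 with a median of 1517, and it fell by 0.33 (SE 0.095, limma adjusted p = 0.00804). Gja1 at -0.09 and Aqp4 at 0.04 were not called.

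Fabp7 was the gene with the largest difference. It ran from 813.4 to 7966 normalized counts with a median of 1842 under fluoxetine and from 692.6 to 1238 with a median of 821.3 with vehicle. Of the 10 fluoxetine libraries, 7 lay above the vehicle range and 3 within it. The log2 difference was 1.29 (SE 0.33, limma adjusted p = 0.00338). Gfap at 0.31 (adjusted p = 0.0649) and Vim at 0.26 (adjusted p = 0.0821), the filament genes, did not pass the test. Of 5 receptor, surface and secreted genes 3 fell, among them Fgfr3 by 0.25 (adjusted p = 0.0165) and Mfge8 by 0.26 (adjusted p = 0.0359), and the others, Ntsr2 at -0.13 and F3 at -0.05, were not called. Gli3 ran from 193.7 to 288.1 with a median of 243.6 against 244.5 to 421.2 with a median of 303.1, 5 of 10 libraries lying below the vehicle range. It fell by 0.36 (SE 0.079, limma adjusted p = 0.000756), while Sox9 was at 0.00 (limma adjusted p = 0.988).

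**Figure D3:**
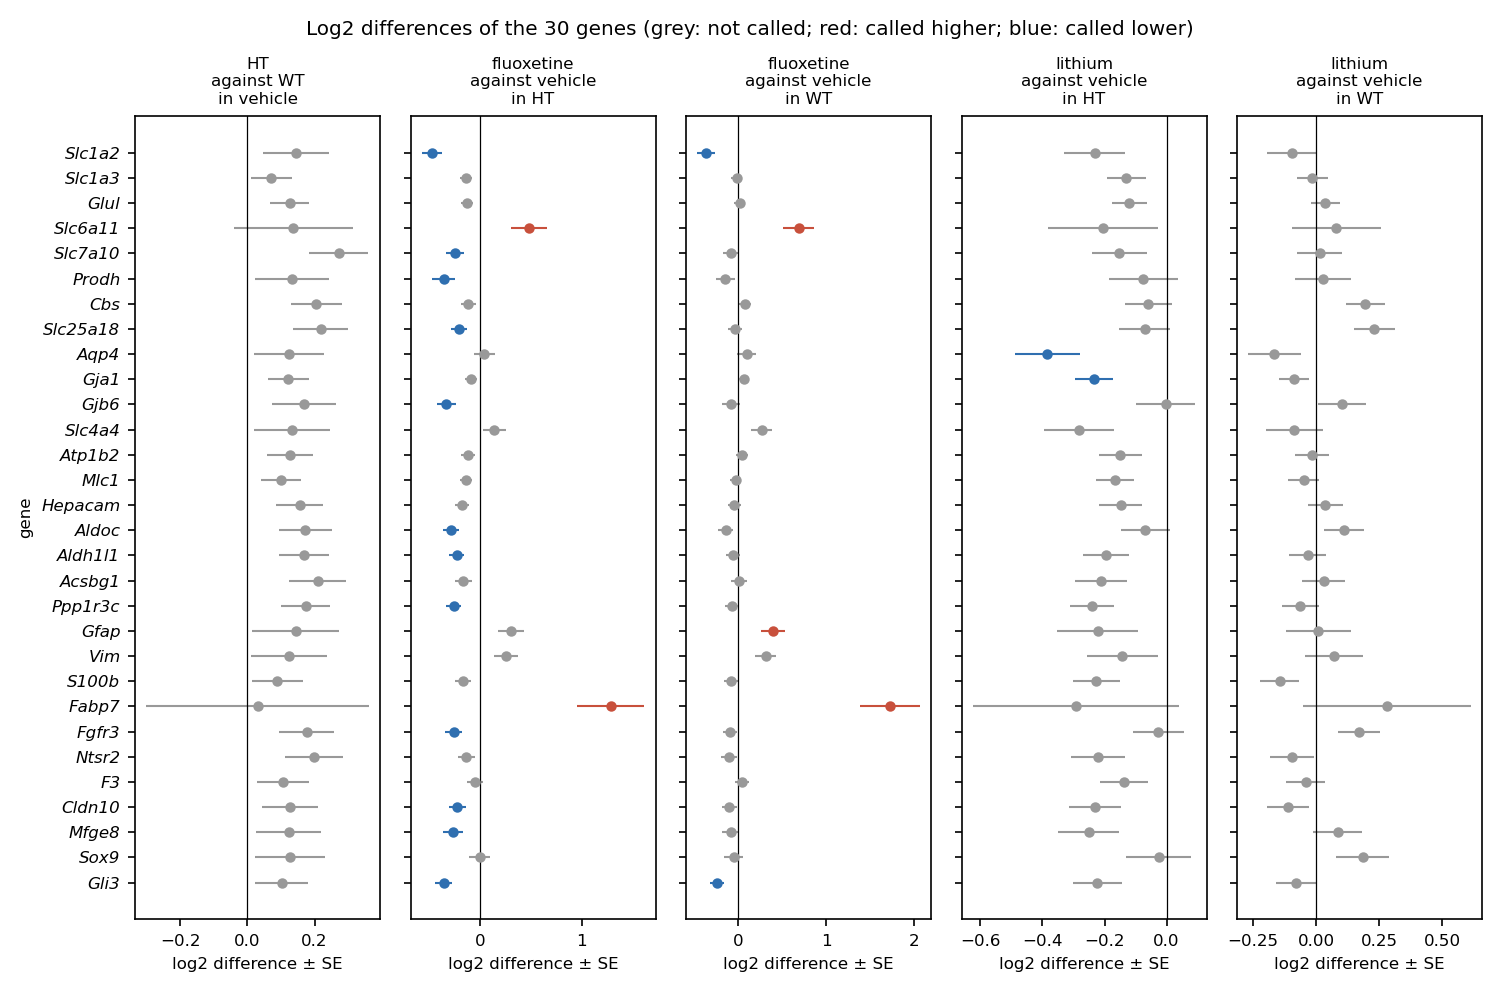
Log2 difference with its SE for each of the 30 genes (rows) in 5 comparisons (panels), red for genes called higher, blue for genes called lower and grey for genes not called by limma at an adjusted p of 0.05. The scales of the x axes differ between panels. Fluoxetine in HT has 2 red and 12 blue points, fluoxetine in WT 3 red and 2 blue, lithium in HT 2 blue, and the other panels none.

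Part of this list rested on single libraries, the controls HT vehicle female 3 and male 3 among them. The libraries high in striatal genes also include HT fluoxetine female 2 and male 2, so leaving them out changes both sides. These fluoxetine libraries had 863.9 and 1114 normalized counts of Fabp7, beside a group median of 1842. Without the 5 libraries high in striatal genes, 4 of the 30 were called higher and 3 lower, with 33.5% of all genes called: Slc6a11 at 0.66, Gfap at 0.46 (limma adjusted p = 0.0128), Vim at 0.38 (adjusted p = 0.0148) and Fabp7 at 1.52 higher, and Slc1a2 at -0.43, Ppp1r3c at -0.19 and Gli3 at -0.29 lower. Leaving out HT vehicle female 3 alone left 8 called. The call of Aldh1l1 and that of Fgfr3 were lost without HT vehicle female 3 or male 3, with adjusted p up to 0.0646 and 0.0587. That of Slc7a10 was lost without HT vehicle female 3 or male 3 or HT fluoxetine female 3 or male 4 (adjusted p up to 0.0954), and that of Mfge8 without HT fluoxetine female 2, female 4 or male 1 or HT vehicle female 1, female 3, male 2 or male 3 (up to 0.112). Slc6a11 lost its call without any one of HT fluoxetine female 1, female 4, male 1 or male 3 or HT vehicle female 2, female 5 or male 2, with adjusted p up to 0.128. Slc1a2, Gli3, Fabp7, Aldoc, Ppp1r3c, Gjb6 and Prodh were called with each single library left out. Under quantile normalization, which replaces values by rank and so bears on the very abundant Slc1a2, its log2 difference was -0.06 (limma adjusted p = 0.522).

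In WT pups fluoxetine was accompanied by higher Fabp7, Slc6a11 and Gfap and by lower Slc1a2 and Gli3. These 5 of 30 genes were called where 14.9% of all genes were, 3 higher (8.81% of all genes) and 2 lower (6.08%), and the median log2 difference was -0.04 against 0.00. Fabp7 ran from 1029 to 7951 normalized counts with a median of 2894 in the 9 fluoxetine libraries and from 604.8 to 1583 with a median of 778.7 in the 10 vehicle libraries. Of the 9, 7 lay above the vehicle range. The log2 difference was 1.73 (SE 0.34, limma adjusted p = 0.00148). Slc6a11 ran from 4673 to 12019 with a median of 7626 against 3794 to 6117 with a median of 4238, with 6 of 9 libraries above the vehicle range and a log2 difference of 0.69 (SE 0.18, limma adjusted p = 0.0101).

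Slc1a2 ran from 54443 to 93838 with a median of 74851 under fluoxetine in WT and from 84916 to 102330 with a median of 97149 with vehicle. Of the 9 fluoxetine libraries, 6 lay below the vehicle range, and the log2 difference was -0.37 (SE 0.10, limma adjusted p = 0.0117). Gli3 ran from 215.7 to 275.6 with a median of 247.9 against 251.2 to 350.7 with a median of 283.2, 6 of 9 libraries lying below the vehicle range. It fell by 0.24 (SE 0.082, limma adjusted p = 0.0366). Gfap ran from 3181 to 5710 with a median of 3899 against 2751 to 4318 with a median of 3117, 4 of 9 libraries lying above the vehicle range, with a log2 difference of 0.39 (SE 0.13, limma adjusted p = 0.0382). Vim at 0.31 (adjusted p = 0.0642) and Slc4a4 at 0.26 (adjusted p = 0.111) did not pass. The energy genes had 0 of 4 called and the receptor, surface and secreted genes 0 of 5.

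**Figure D4:**
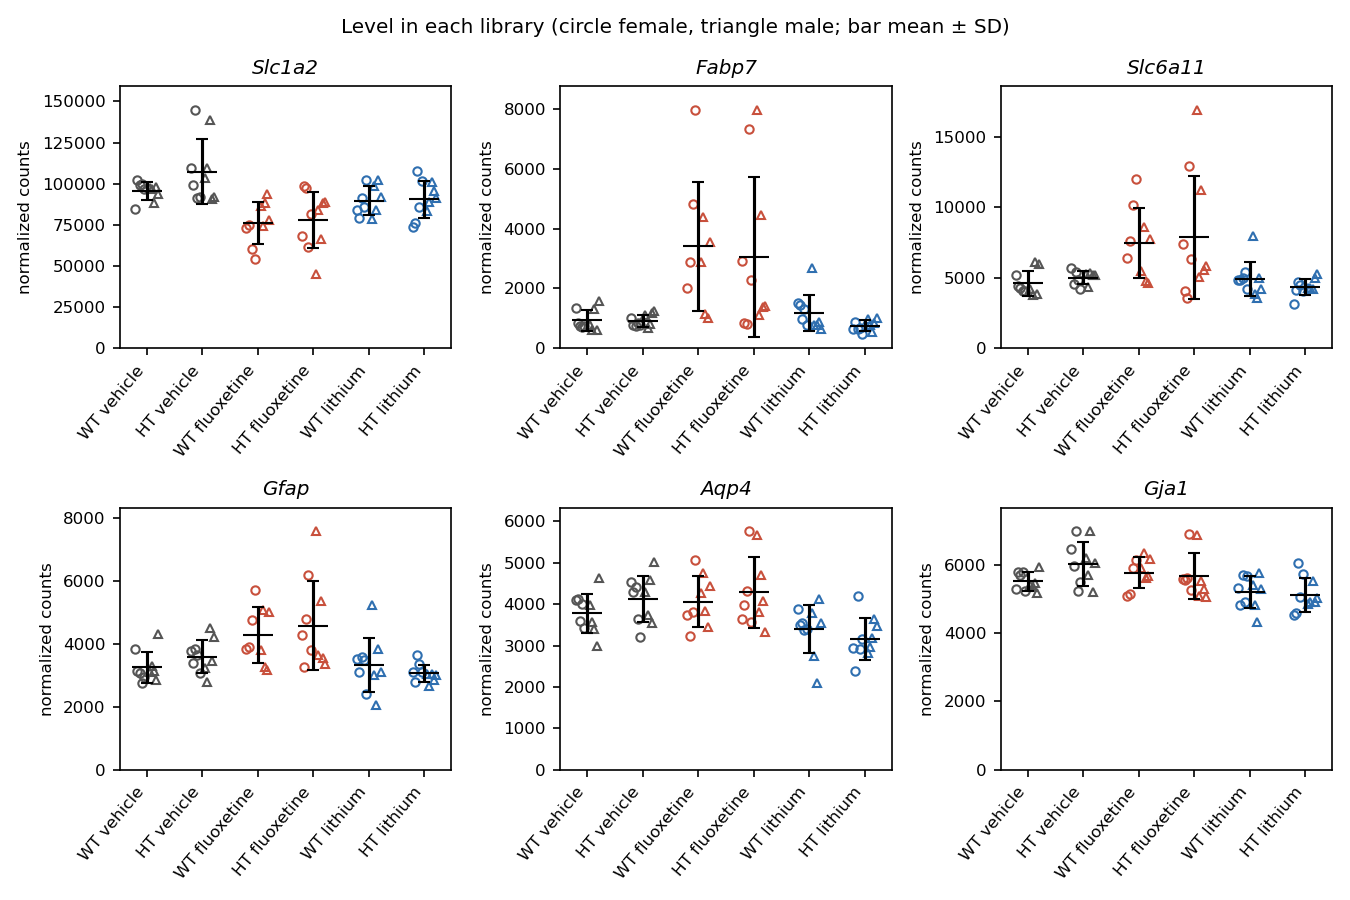
Normalized counts of Slc1a2, Fabp7, Slc6a11, Gfap, Aqp4 and Gja1 in each of the 59 libraries, by genotype and drug, with circles for females, triangles for males and bars for the mean ± SD. Fabp7 and Slc6a11 spread most widely in the fluoxetine groups, where the highest libraries reach 7966 and 16930, and each drug group overlaps its own vehicle group in all 6 genes.

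For the WT comparison, single libraries decided the calls of Gfap and Gli3. Gfap was not called without any one of WT fluoxetine female 3, female 4, male 2 or male 5 or WT vehicle females 2 to 5 or males 1 to 4, with adjusted p up to 0.126, and Gli3 without any one of WT fluoxetine female 3, female 4, male 1, male 2 or male 5 or WT vehicle female 2, female 3, female 5, male 1 or male 4 (up to 0.0809). Fabp7, Slc6a11 and Slc1a2 were called with each single library left out, but Slc1a2 not under quantile normalization (-0.18, limma adjusted p = 0.0628).

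The comparison was also made within each sex. In WT females Fabp7 rose by 2.18 (limma adjusted p = 0.00289), Slc6a11 rose by 1 on the log2 scale (adjusted p = 0.00742) and Slc1a2 fell by 0.57 (adjusted p = 0.00647), with 19.8% of all genes called. In WT males 0 of 30 were called, beside 0% of all genes, and Fabp7 differed by 1.28 (unadjusted p = 0.00898 and adjusted p = 0.942 with limma). A difference between the sexes was not shown: of the 30 genes 0 were called for it in WT, beside 0.0846% of all genes, and the smallest p belonged to Slc1a2 (0.39, SE 0.20, limma adjusted p = 0.432), Slc6a11 (-0.63, adjusted p = 0.472) and Ppp1r3c (0.23, adjusted p = 0.527). In HT females Gli3 was the only gene of the 30 called (-0.36, adjusted p = 0.0372), with 6.85% of all genes called, and Fabp7 differed by 1.30 (adjusted p = 0.0806). In HT males 5 fell, with 13.4% of all genes called: Slc1a2 by 0.54, Gjb6 by 0.46, Aldoc by 0.35, Gli3 by 0.35 and Prodh by 0.47, with adjusted p from 0.00935 to 0.0388. HT vehicle male 3, described above, is among these controls, and HT vehicle female 3 is among those of HT females. Libraries high in bulb genes include WT fluoxetine females 2, 3 and 4 and males 2 and 5. They also include HT fluoxetine females 1 and 4 and males 1 and 3. The calls within a sex were not repeated without any of these libraries.

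Several of the genes that moved under fluoxetine followed the level of olfactory bulb genes. The 8 bulb markers, among them Omp, S100a5 and Barhl2, summed to 215 to 25711 normalized counts with a median of 4313 in HT fluoxetine libraries and to 247 to 2450 with a median of 847 in HT vehicle libraries. In WT they summed to 1522 to 19727 with a median of 7506 under fluoxetine and to 198 to 4453 with a median of 460 with vehicle. All 8 were called higher under fluoxetine in both genotypes, with median log2 differences of 2.79 in HT and 3.25 in WT, as were all 8 markers of migrating immature interneurons (1.17 and 1.24) and 5 of 6 markers of olfactory ensheathing cells in each genotype (0.51 and 0.59).

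Across the fluoxetine libraries of 1 genotype, some of the astrocyte genes followed the bulb level. In HT (n = 10, permutation test with 100000 resamples, two-sided, adjusted over 60 relations) Slc6a11 had a Pearson r of 0.942 (adjusted p = 0.0006) and Fabp7 one of 0.937 (adjusted p = 0.0012), and both had a Spearman rho of 1 (adjusted p = 0.0002 for each). Slc1a2 had an r of -0.875 (adjusted p = 0.00367) and a rho of -0.939 (adjusted p = 0.00187), and Gli3 an r of -0.888 (adjusted p = 0.00285) and a rho of -0.927 (adjusted p = 0.00212). Without the 2 libraries farthest from the median bulb level, r was 0.976, 0.994, -0.918 and -0.891 for Slc6a11, Fabp7, Slc1a2 and Gli3. In HT 5 of the 30 genes had a positive and 3 a negative r with an adjusted p below 0.05, all with r of at least 0.845 in size, a size reached by 5.34% of 16536 genes with a positive and 3.36% with a negative r. For Ppp1r3c the relation rested on the 2 farthest libraries (r of -0.866, and -0.511 without them).

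In WT (n = 9, exact permutation test, adjusted over the same 60 relations) Slc6a11 had an r of 0.977 (adjusted p = 0.000165) with a rho of 1 (adjusted p = 0.0002), and Fabp7 an r of 0.964 (adjusted p = 0.0012) with a rho of 0.983 (adjusted p = 0.000595). Gfap had an r of 0.934 (exact adjusted p = 0.00217) with a rho of 0.950 (adjusted p = 0.00212), and Slc1a2 an r of -0.904 (exact adjusted p = 0.00812) with a rho of -0.883 (adjusted p = 0.0154). Without the 2 farthest libraries r was 0.998, 0.890, 0.873 and -0.895 in the same order. In WT 5 of the 30 genes had a positive and 1 a negative r with an adjusted p below 0.05, all with r of at least 0.862 in size, reached by 6.78% of 16537 genes with a positive and 6.27% with a negative r. The 1 negative relation was that of Slc1a2, and that of Gli3 did not pass in WT. The 1 lithium library high in bulb genes, WT lithium male 1, also had the highest Fabp7 of its group, 2685 normalized counts.

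Without the 10 libraries high in bulb genes, WT fluoxetine kept female 1 as its only female, beside males 1, 3 and 4. With the sexes weighted equally, that library carried the whole female side, so only sizes of difference are given for WT. Fabp7 then differed by 0.98, Slc6a11 by 0.31 and Slc1a2 by -0.24, beside 1.73, 0.69 and -0.37 with all libraries. The kept WT fluoxetine libraries still had bulb levels of 0.943, 0.711, 0.147 and -0.070. Those of WT vehicle ran from -1.178 to 0.734 and were mostly negative, so leaving libraries out did not make the groups equal in bulb level. In HT 5 genes were called, all lower, with 9.71% of all genes: Slc1a3 at -0.23, Slc7a10 at -0.36, Slc25a18 at -0.33, Gjb6 at -0.38 and Mlc1 at -0.22. Fabp7 at 0.45, Slc6a11 at -0.01 and Slc1a2 at -0.24 were not called. This fit kept HT vehicle female 3 and male 3 and HT fluoxetine female 2 and male 2, all high in striatal genes. None of the 5 genes was called without the libraries high in striatal genes, and no fit left out both sets. Bulb levels of the kept HT fluoxetine libraries ran from -1.111 to 0.970, beside -1.102 to 0.307 in HT vehicle. With the bulb level as a covariate in all libraries, Slc25a18 at -0.29 (limma adjusted p = 0.0398) was the 1 gene called in HT, with 6.29% of all genes called. In WT 0 were called, with 0.139% of all genes, and Fabp7 differed by 0.23 in HT and 0.35 in WT.

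Lithium in HT pups was accompanied by lower Gja1 and Aqp4, genes of the astrocyte connexin and of the end-foot water channel. These 2 of 30 were called, both lower (1.57% of all genes) and none higher (1.27% of all genes), where 2.84% of all genes were called in either direction. All 30 log2 differences were negative, with a median of -0.18 against 0.00 over all genes, and 17 of the 30 had an unadjusted p below 0.05. Gja1 ran from 4541 to 6038 normalized counts with a median of 4966 under lithium and from 5210 to 6977 with a median of 5997 with vehicle, with 7 of 10 lithium libraries below the vehicle range. It fell by 0.23 (SE 0.061, limma adjusted p = 0.0247). Aqp4 ran from 2380 to 4194 with a median of 3062 against 3217 to 5017 with a median of 4282, again with 7 of 10 libraries below the vehicle range. It fell by 0.38 (SE 0.10, limma adjusted p = 0.0327).

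Ppp1r3c, next in order of p, ran from 784.9 to 1132 with a median of 958 under lithium and from 981.7 to 1509 with a median of 1004 with vehicle. Its log2 difference of -0.24 (SE 0.072, limma adjusted p = 0.0537) did not pass. Slc1a2 was at -0.23 (adjusted p = 0.195), Gfap at -0.22 (adjusted p = 0.38), Fabp7 at -0.29 (adjusted p = 0.701) and Gjb6, the other connexin gene, at 0.00 (adjusted p = 0.992). The same vehicle libraries serve here as for fluoxetine. Without the 5 libraries high in striatal genes 0 of 30 were called, with 0.689% of all genes: Aqp4 was at -0.35 (limma adjusted p = 0.142) and Gja1 at -0.18 (adjusted p = 0.182), the median was -0.09, and 23 of 30 were negative. Gja1 also lost its call without HT lithium female 1 or female 2 or HT vehicle female 1, female 3 or male 3 (adjusted p up to 0.0839), and Aqp4 without any one of these or of HT lithium female 4, male 1 or male 2 or HT vehicle male 5 (up to 0.086), whereas without HT lithium female 3 there were 6 genes called.

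With lithium in WT pups 0 of 30 genes were called, where 1.61% of all genes were, and 3 of the 30 had an unadjusted p below 0.05. Slc25a18 ran from 1333 to 1696 normalized counts with a median of 1440 under lithium and from 1146 to 1462 with a median of 1253 with vehicle. Of the 10 lithium libraries, 5 lay above the vehicle range, and the log2 difference was 0.23 (SE 0.081, limma adjusted p = 0.143). Cbs ran from 738.9 to 936 with a median of 823 against 646.4 to 830.7 with a median of 708.1, with a log2 difference of 0.20 (SE 0.076, limma adjusted p = 0.196). Fgfr3 differed by 0.17 (SE 0.082, limma adjusted p = 0.329). Without the 5 libraries high in striatal genes, which include no WT lithium or WT vehicle library, Slc25a18 (adjusted p = 0.0264) and Cbs (adjusted p = 0.0391) passed. Gja1 at -0.09 and Aqp4 at -0.16 were not called in WT.

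Differences between the genotypes under a drug were not called for any of the 30. Under fluoxetine 0 of 30 differed, beside 0.0423% of all genes, with the smallest p for Ntsr2 (0.18, limma adjusted p = 0.814), Sox9 (0.18, adjusted p = 0.870) and Slc7a10 (0.12, adjusted p = 0.920). Under lithium 0 of 30 differed, beside 0.00604% of all genes, and the smallest p was that of Mfge8 (-0.21, unadjusted p = 0.0332, limma adjusted p = 1). The test of whether fluoxetine differed in its difference between HT and WT called 0 of 30, beside 0.0302% of all genes. Gjb6 at -0.24, Ppp1r3c at -0.18 and Gja1 at -0.15 had the smallest p (limma adjusted p = 1 for each). The same test for lithium called 0 of 30, beside 0% of all genes, with Slc25a18 at -0.30 (SE 0.12, unadjusted p = 0.0114, limma adjusted p = 0.890), Mfge8 at -0.34 and Cbs at -0.25, and 4 of the 30 had an unadjusted p below 0.05. Thus the genes called under a drug in HT and not in WT were not shown to respond differently. Males and females differed in 0 of 30, beside 0.145% of all genes, and 0 of the 30 had an unadjusted p below 0.05.

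Other genes of astrocyte biology were read beside the 30, as counts, to be set against the shares of all genes called (in HT under fluoxetine 14.6% higher and 14.6% lower). Under fluoxetine in HT, 12 of 36 further astrocyte genes fell and 1 rose, with a median log2 difference of -0.12: Gpr37l1, a glial receptor, by 0.46 (limma adjusted p = 4.95e-05), the zinc transporter gene Slc39a12 by 0.37 (adjusted p = 9.21e-05), and the thyroid hormone transporter gene Slco1c1 by 0.39 (adjusted p = 0.000148). Of 27 measured genes of reactive astrocytes 4 rose and 2 fell, a share of higher genes near that of all genes, with Sphk1, sphingosine kinase, at 0.65 and Cd14 at -0.54. Of 14 genes of secreted factors that act on synapses 4 rose and 1 fell, the thrombospondin genes Thbs1 and Thbs2 at 0.75 and 0.47 and Bmp7 at 0.44. Of 12 radial glia genes 3 rose and 2 fell, Pax6 at 0.98, Tnc at 0.72 and Nr2e1 at -0.36. Of 10 neuronal genes of GABA and glutamate handling 6 rose and 2 fell, led by Gad2 at 0.35 and the vesicular GABA transporter gene Slc32a1 at 0.53.

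Genes of other cell types moved in the same HT fluoxetine comparison, where 14.6% of all genes fell. Of 12 microglial genes 9 fell and 0 rose (median -0.30), with P2ry12 at -0.45 and Csf1r at -0.37. Of 14 endothelial and mural genes 5 fell and 0 rose (median -0.17), with Rgs5 at -0.42 and Slco1a4 at -0.38, and of 12 myelin genes 0 were called (median -0.29). These are also the lists in which HT vehicle female 3 and male 3 stood high. In WT, where fluoxetine called 8.81% of all genes higher and 6.08% lower, 7 of 12 microglial genes fell (median -0.24), 4 of 36 further astrocyte genes fell and 1, Apoe at 0.38, rose (median -0.02), and of 12 radial glia genes 3 rose, Pax6 at 1.08, Notch2 at 0.62 and Tnc at 0.58. The part of the bulb libraries in these other lists was not tested.

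Under lithium in HT, where 1.57% of all genes fell, 3 of 36 further astrocyte genes fell, Plpp3 at -0.23, Lgi4 at -0.26 and Phkg1 at -0.31, and the median was -0.18, equal to that of the 30. Beside them 4 of 12 microglial genes fell (P2ry12 at -0.37), 3 of 14 vessel genes fell (Kdr at -0.44, Cldn5 at -0.37 and Rgs5 at -0.29), and 12 of 12 myelin genes were negative with 0 called (median -0.58). The myelin level was -3.325 and -1.651 in HT lithium females 1 and 5 and 3.030 and 2.598 in HT vehicle female 3 and male 3. Other libraries of both groups lay between -0.561 and 1.271. The contribution of these other cells' RNA to the lower Gja1 and Aqp4 was not tested. In WT lithium libraries 0 of 36 further astrocyte genes were called (median 0.02). With vehicle 35 of 36 further astrocyte genes were higher in HT, none called, with a median of 0.14, beside medians of 0.31 for myelin genes, 0.15 for vessel genes and 0.13 for microglial genes. HT vehicle female 3 and male 3 had levels of 2.269 and 2.322 for these 36 genes. The other HT vehicle libraries ran from -0.418 to 0.923 and WT vehicle libraries from -0.443 to 0.223.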

How the data were processed

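Poly(A) stranded messenger RNA libraries of 59 pups were sequenced, per the labels' protocols. The authors quantified reads with Salmon 0.11.2 on GRCm38 and normalized them in R 3.6.0 with DESeq2 1.19.11 (source: per the submitters' processing notes), so the deposited signal per gene is a read count divided by a size factor of each library (0.85 to 1.203), called a normalized count here. In every library 100% of values were whole multiples of 1 read within 0.01, and the read totals come from that step. Identifiers matched a symbol for 18077 of 18088 genes.

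Log2(normalized count + 1) of 16546 genes with a mean of at least 10 was fitted with limma 3.58.1 in R 4.3.3 (trended, robust prior, 12 group means, 59 libraries). P-values were adjusted by Benjamini-Hochberg over those genes, with a threshold of 0.05. The planned design allowed for raw counts, and this test was used because the values are normalized. The recovered reads were also tested with edgeR 4.0.16 and DESeq2 1.42.0. The limma fit was also run on simulated counts with known changes. Genes varied independently there, so that run does not bear on libraries that stand apart in many genes or on litters. Lengths and positions come from GENCODE on GRCm38.

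The 30 genes, the companion lists and the tests were chosen with earlier results of these data known. Genes called are named up to 12 per comparison by smallest p, with group values for the first 6, and the 3 of smallest p where fewer than 3 passed. Up to 3 genes of a companion list are named where 3 or more were called. Other genes named were chosen after their values were seen, as was the alternative without libraries high in bulb genes.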

Additional observations from a re-analysis of the deposited data

Results flagged for a closer look

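For 14 of the genes and for the sum of the 30, 180 sets of 4 or 5 values were examined, 1 for each of the 12 groups. In them 20 values from 14 libraries lay far from the rest of their group by Dixon's criterion, where chance gives about 1 in 20 sets. Of these, 9 values belong to HT vehicle libraries. HT vehicle female 3 stood above its group in Slc7a10 (1151 normalized counts, others 697.3 to 828.4), Cbs (1148, others 735.3 to 847.5) and Aldoc (29166, others 18650 to 21038). HT vehicle male 3 did so in Slc7a10 (1172, others 698.4 to 797), Cbs (1272, others 655.9 to 771.2), Slc25a18 (2040, others 1293 to 1404), Aldoc (29868, others 17299 to 19448) and Ppp1r3c (1509, others 981.7 to 1013). HT vehicle male 2 was low in Slc6a11 (4378, others 5188 to 5339).

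In WT vehicle, male 4 was high in Slc7a10 (762), female 3 in Cbs (830.7), male 5 in Slc25a18 (1462) and female 1 in Fabp7 (1334, others 725.5 to 842.7). Under fluoxetine, HT female 4 and HT male 1 were high in Gja1 (6888 and 6859), WT female 3 in Ppp1r3c (967.2, others 842.7 to 860.3), and WT female 1 was low in Fgfr3 (2161, others 2383 to 2396). Under lithium, HT male 3 was high in Gja1 (5537), WT female 3 in Ppp1r3c (1150), and WT male 1 in Fabp7 (2685, others 663.5 to 871.6). WT lithium male 1 is also the lithium library high in olfactory bulb genes, and HT fluoxetine female 4 and male 1 have the highest bulb levels of the HT fluoxetine libraries.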

How the results depend on the processing

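Of the 30 genes, fluoxetine in HT called 14, fluoxetine in WT 5, lithium in HT 2 and lithium in WT 0. Those counts became 1, 0 and 5 with the olfactory bulb level as covariate (first 3 comparisons). Without the libraries high in striatal genes they were 7 for fluoxetine in HT, 0 for lithium in HT and 2 for lithium in WT. Without those high in bulb genes fluoxetine in HT called 5. No count is given for WT, where 1 fluoxetine female was left. Fitting the compared groups alone gave 6, 8, 1 and 2. A term for the 14 libraries of HT fluoxetine and of WT fluoxetine females, a division taken from earlier results of these data, gave 0 for fluoxetine in both genotypes, and 0 over all genes. It holds every HT fluoxetine library, so term and drug cannot be told apart in HT, and the 0 says nothing of stability. In WT it separates the fluoxetine females, with 19.8% of all genes called against vehicle, from the males, with 0%. There the division cannot be told apart from sex, and the labels do not say what else sets these libraries apart. Quantile normalization gave 10, 4 and 0 in the first 3 comparisons. Slc6a11 changed sign for fluoxetine in HT to -0.0764 with the bulb covariate and -0.0099 without the bulb libraries. In WT it changed to -0.0399 with the covariate, where Gfap became -0.0105. The fit with the term gave -0.179 for Slc6a11 in HT, which has no reading there because term and drug cannot be told apart. The cause of the sign changes was not tested. Leaving out each library in turn gave 8 to 17 for fluoxetine in HT, 3 to 6 in WT, 0 to 6 for lithium in HT, and 0 to 0 in the other comparisons. For single named genes, leaving out a library kept the side of the threshold in 1332 fits, ended a call in 58, made one in 8 and reversed 0. edgeR and DESeq2 on recovered reads each called 16, 6, 3 and 0. With the replicate number as a block, the counts were 15, 5, 3 and 0, Ppp1r3c passing under lithium in HT (adjusted p = 0.0458). Numbers do not pair the pups: of 68 pairs 17 correlated above 0.1 (r from -0.398 to 0.551), and 16 of 59 libraries correlated best with their own number.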
